A study of Mus musculus with 8 samples.

Results

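The inflammatory CC chemokines described here are *Ccl2*, *Ccl3*, *Ccl4*, *Ccl5*, *Ccl6*, *Ccl7*, *Ccl8*, *Ccl9*, *Ccl11* and *Ccl24*, taken as every probe that the array annotation assigns to these 10 symbols. All 10 had a probe and *Ccl4* had 2, so that the family holds 11 of the 24613 probes on the array and 11 of the 12389 probes that passed the detection filter (a detection p under 0.05 for both arrays of some sample type). Their mRNA levels were read from 8 Illumina MouseRef-8 chips, 2 for each of 4 sample types: fresh stroma of the LTβR-KO spleen (genotype LTbR-/-, without the lymphotoxin beta receptor, after more than 10 backcrosses to C57BL/6), cultured stroma of the WT spleen, fresh stroma of the WT spleen, and WT splenocytes. All mice were of the C57BL/6 strain, aged 8 to 10 weeks, and the WT samples carry the genotype LTbR+/+. Fresh stroma is the material left on a 70 µm mesh after the spleen was rubbed and rinsed, splenocytes are the cells in the rinse, and cultured stroma is the plastic-adherent cells of whole minced spleen after 3 to 4 weeks and 2 to 3 passages. The knockout is not restricted to a cell type, so lymphocytes and stroma both lacked the receptor. The sources differ on whether the 2 arrays of each kind are biological replicates or technical replicates of 1 extract, as the deposited design has it, so the p-values below describe array-to-array spread that may be technical only.

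CC chemokines are small secreted proteins that draw leukocytes along a gradient by binding G protein-coupled receptors. The inflammatory members are made on stimulation by macrophages, fibroblasts, endothelium and lymphocytes, in contrast to the homeostatic members that place lymphocytes in the white pulp under the control of LTβR. *Ccl2* and *Ccl7* attract monocytes through CCR2, mouse *Ccl8* acts on CCR8, *Ccl11* and *Ccl24* (the eotaxins) attract eosinophils through CCR3, *Ccl3*, *Ccl4* and *Ccl5* attract monocytes and T cells, and *Ccl6* and *Ccl9* are rodent ligands of CCR1. Besides these signalling receptors, the scavenging receptor *Ackr2* takes up and degrades inflammatory CC chemokines.

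Between 9900 and 11283 probes were detected per array, and median bead signals ran between 55.9 and 66.6. The *Ltbr* probe was detected on all 8 arrays, LTβR-KO included (limma adjusted p = 0.257 for LTβR-KO against WT stroma). Where that probe lies relative to the deleted part is not given in the sources used here, so it does not check the genotype. The markers bore out the stroma label only in part. In WT stroma against splenocytes, 7 of 8 fibroblast and 4 of 5 endothelial markers were called higher, while the summed signal of the erythroid markers was no smaller in WT stroma (43546 and 44342) as in splenocytes (37962 and 38089). In cultured stroma 4 of 5 endothelial markers (*Pecam1*, *Cdh5*, *Plvap* and *Tek*) were not detected, and the macrophage markers summed to 45955 and 46835, against 4561 and 4839 in fresh WT stroma. The arrays carry bulk RNA, in which fewer cells of a type and less RNA per cell cannot be told apart.

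**Figure D1:**
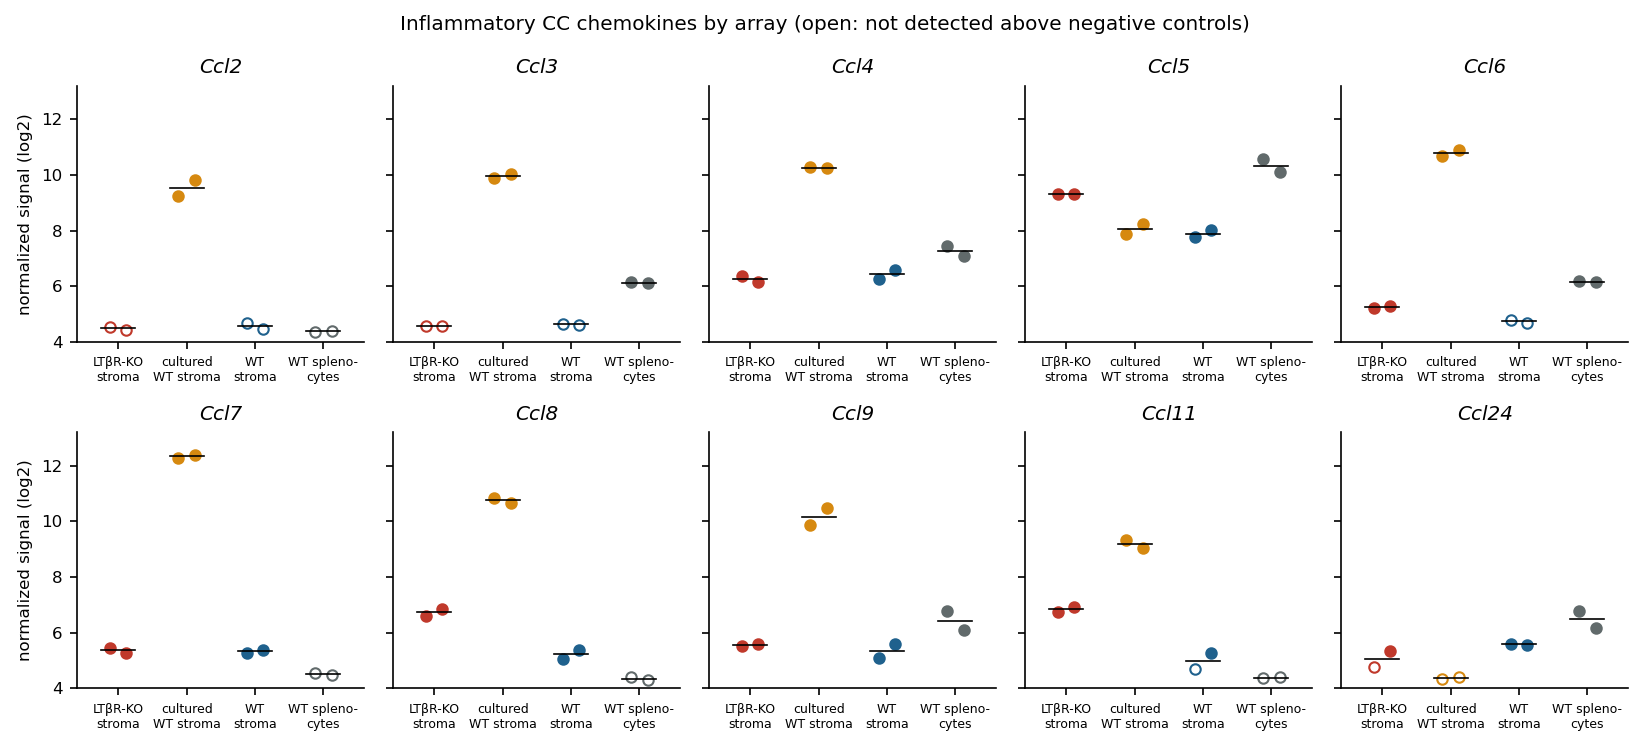
Normalized signal (log2, vertical axis) of each of the 10 members on every array, with LTβR-KO stroma, cultured WT stroma, WT stroma and WT splenocytes along the horizontal axis. Points are single arrays, bars are means of 2 arrays, and open points were not detected above the negative controls. The cultured arrays are the brightest for 8 members and the splenocyte arrays for *Ccl5* and *Ccl24*.

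Loss of LTβR was accompanied by more signal of 4 members in fresh stroma. *Ccl11*, *Ccl8*, *Ccl5* and *Ccl6* were called higher in LTβR-KO than in WT stroma, 0 members were called lower, and 6 were not called. Over all tested probes, 5.30% were called higher and 7.15% lower by the same fit (limma, Benjamini-Hochberg adjusted p under 0.05). At an unadjusted p under 0.05 the only member on the lower side was *Ccl24*, and no member was called lower under any of the 19 alternative settings. The median difference was 0.13 on the log2 scale for the 10 members and 0.02 for all tested probes.

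*Ccl11*, the eotaxin that recruits eosinophils and is typically made by fibroblasts, differed most. Its normalized log2 signal was 6.75 and 6.93 in LTβR-KO stroma, against 4.69 and 5.26 in WT stroma. The groups did not overlap, and of the WT arrays only the brighter detected the probe. The difference was 1.87 (SE 0.19, adjusted p = 2.24e-04), or 3.65-fold. The size of this fold depended on the processing, with 2.27-fold without background correction and 5.68-fold in the authors' normalized values. Those values differ in normalization as well, and were raised to 16 where lower. *Ccl8*, the CCR8 ligand, had 6.62 and 6.85 in LTβR-KO stroma, against 5.06 and 5.39 in WT stroma, detected on all of these arrays. It was 2.85-fold higher (log2 difference 1.51, SE 0.16, adjusted p = 3.14e-04). Both genes were at background in splenocytes, where neither was detected on either array.

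*Ccl5*, known as RANTES and made by activated T and NK cells, had 9.31 and 9.33 in LTβR-KO stroma, against 7.76 and 8.03 in WT stroma. This is a 2.68-fold difference (log2 1.42, SE 0.19, adjusted p = 0.00117). Unlike *Ccl8* and *Ccl11*, *Ccl5* was brighter still in splenocytes, at 10.57 and 10.10. Beside it, 4 of the 6 tested T and NK markers were called higher in LTβR-KO stroma (*Cd3e*, *Cd3g*, *Cd3d* and *Cd2*, by 1.05 to 1.68 on the log2 scale), and none of the 6 was undetected there. *Nkg7* (0.47, adjusted p = 0.0792) and *Klrd1* (0.10, adjusted p = 0.731) were not called. The T and NK list summed to 3716 and 4388 in LTβR-KO stroma, against 1773 and 2039 in WT stroma. *Ccl6*, a CCR1 ligand of myeloid cells, was detected in LTβR-KO stroma (5.20 and 5.30) and not in WT stroma (4.78 and 4.68). It was at least 1.35-fold higher (measured difference 0.51, SE 0.14, adjusted p = 0.0393). With an offset of 50 in the background correction the measured fold was 1.19, under this bound. Here and below, a fold with "at least" sets the brighter group against the lowest signal at which probes were still detected on the dimmer group's arrays. The *Ccl6* call was lost in 11 of the 19 alternative settings (adjusted p between 0.0144 and 0.160), whereas the calls of *Ccl5*, *Ccl8* and *Ccl11* held in all 19.

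The remaining 6 members were not called in any of the 19. *Ccl2* and *Ccl3* were undetected on every LTβR-KO and WT stroma array, and so have no fold between them. *Ccl4* had 6.36 and 6.14 in LTβR-KO stroma, against 6.27 and 6.60 in WT stroma, a difference of -0.19 with a 95% interval of -0.57 to 0.20. *Ccl7* differed by 0.05 (-0.26 to 0.36) and *Ccl9* by 0.21 (-0.36 to 0.79). *Ccl24* had 4.78 and 5.33 in LTβR-KO stroma, where the dimmer array did not detect it, against 5.60 and 5.57 in WT stroma (difference -0.53, interval -1.03 to -0.04, adjusted p = 0.156). The arrays of *Ccl24* did not overlap, but its difference did not pass the adjusted threshold. The intervals of *Ccl8* (1.15 to 1.87) and *Ccl11* (1.44 to 2.30) lay wholly above that of *Ccl7*, their neighbour on chromosome 11.

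Markers of several cell types moved in the same contrast. All 8 tested granulocyte markers, 3 of 4 B cell markers and 4 of 4 pancreatic acinar markers were called higher in LTβR-KO stroma. Among fibroblast markers, *Col3a1* (0.70, adjusted p = 0.0108) and *Dpt* (0.90, adjusted p = 0.0242) were higher and the other 6 of 8 were not called, with list sums of 4895 and 4914 in LTβR-KO stroma, against 3745 and 4378 in WT stroma. Among 8 macrophage and monocyte markers, *Mrc1* (0.68) and *C1qb* (0.64) were higher, *Lyz2* was lower (-0.78), and the sums overlapped (4437 and 4917 in LTβR-KO stroma, 4561 and 4839 in WT stroma). Endothelial markers went the other way, with 4 of 5 called lower and sums of 2717 and 3070 in LTβR-KO stroma, against 4415 and 4912 in WT stroma. The part of these cell types in the chemokine differences was not tested.

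**Figure D2:**
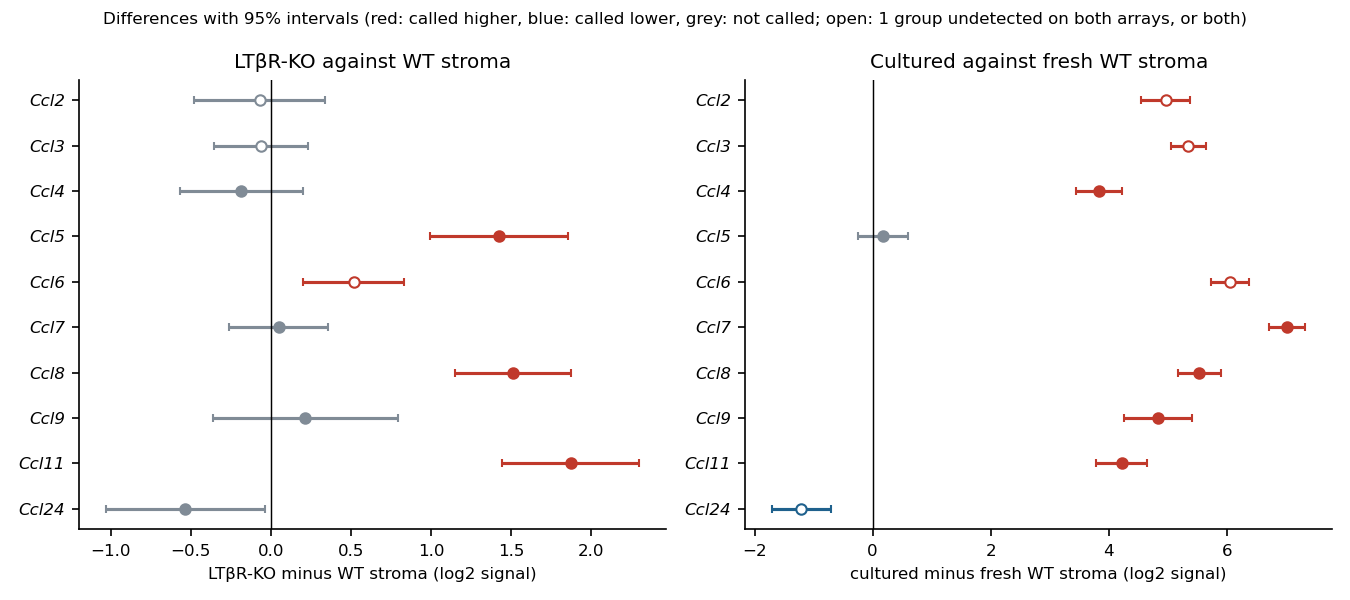
Difference in normalized signal (log2, horizontal axes) of each member for LTβR-KO minus WT stroma and for cultured minus fresh WT stroma, with 95% intervals from the fit. Red points were called higher, blue lower and grey not called, and open points involve a group with no detection on either array. On the left *Ccl11* is farthest from 0 at 1.87, and on the right *Ccl7* is at 7.02 while *Ccl5* lies at 0.18.

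Cultured stroma carried far more signal of nearly the whole family than fresh stroma did. Of the 10 members, 8 were called higher in cultured than in fresh WT stroma, *Ccl24* was called lower and *Ccl5* was not called. The share among all tested probes was 33.8% higher and 31.0% lower. The median difference of the members was 4.89 on the log2 scale, against -0.02 for all probes. Both comparisons use the same WT stroma arrays. All 8 higher calls and the lower call held under each of the 19 alternative settings. Fold sizes did not hold as well, and 8 of the 9 moved by over 1.5 times, the exception being *Ccl4*. The bounds written as "at least" below belong to the reported background correction. With an offset of 50, or no correction for *Ccl6*, the measured folds fell to 13.4 for *Ccl2*, 17.7 for *Ccl3* and 29.5 for *Ccl6*.

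The largest value in culture was that of a monocyte attractant. *Ccl7* had 12.29 and 12.41 in cultured stroma, against 5.29 and 5.37 in fresh WT stroma. In bead signal as deposited, this is 9131 and 10349, against 68.9 and 81.1. The difference of 7.02 (SE 0.14, adjusted p = 9.68e-11) is 129.9-fold, and it was 68.5-fold without background correction and 183-fold with scaling to the 75th percentile. *Ccl2*, known as MCP-1, had 9.25 and 9.80 in cultured stroma and was not detected on any array of the other 3 sample types (4.66 and 4.46 in WT stroma). It was at least 26.1-fold higher (adjusted p = 5.79e-09). *Ccl8* had 10.85 and 10.66 in cultured stroma, against 5.06 and 5.39 in fresh WT stroma, a 46.2-fold difference (5.53, SE 0.16, adjusted p = 1.18e-09).

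The macrophage inflammatory proteins and the CCR1 ligands rose alongside. *Ccl6* had 10.67 and 10.90 in cultured stroma, against the undetected 4.78 and 4.68 in WT stroma, and was at least 62.7-fold higher (adjusted p = 2.16e-10). *Ccl9*, its neighbour in function, had 9.86 and 10.47 in cultured stroma, against 5.10 and 5.58 in WT stroma (28.4-fold, adjusted p = 8.00e-08). For these CCR1 ligands every cultured array lay above every other array of the series. *Ccl3*, known as MIP-1 alpha, had 9.90 and 10.04 in cultured stroma, against the undetected 4.64 and 4.61 in WT stroma, and was at least 35.6-fold higher (adjusted p = 3.48e-10). *Ccl4*, known as MIP-1 beta, had 10.28 and 10.26 in cultured stroma, against 6.27 and 6.60 in WT stroma (14.2-fold, adjusted p = 2.30e-08). The dimmer *Ccl4* probe moved the same way, with 8.18 and 7.99 in cultured stroma, against the undetected 4.54 and 4.60 in WT stroma, at least 9.63-fold higher (adjusted p = 7.93e-09).

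The eotaxins parted. *Ccl11* had 9.33 and 9.05 in cultured stroma, against 4.69 and 5.26 in fresh WT stroma, an 18.6-fold difference (adjusted p = 2.53e-08). *Ccl24*, which signals through the same receptor, was undetected in cultured stroma (4.34 and 4.42), against 5.60 and 5.57 in WT stroma, and was at least 1.53-fold lower (adjusted p = 7.01e-04). *Ccl5* had 7.89 and 8.25 in cultured stroma, against 7.76 and 8.03 in fresh WT stroma. The arrays overlapped, and the difference of 0.18 had an interval of -0.25 to 0.60 (adjusted p = 0.447). The T and NK list, in contrast, summed to 183 and 191 in cultured stroma, against 1773 and 2039 in WT stroma, with 6 of 6 markers called lower and *Cd3e* and *Cd2* undetected. Cultured stroma was also set against LTβR-KO stroma, where 8 members were called higher and *Ccl5* and *Ccl24* lower, with 64.7% of all tested probes called in either direction. *Ccl8* and *Ccl11*, the members already higher in LTβR-KO than in WT stroma, were 16.2-fold and 5.09-fold higher in cultured than in LTβR-KO stroma.

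The markers of macrophages and monocytes moved with the family in culture. All 8 tested were called higher, among them *Cd14* (log2 difference 4.15), *C1qb* (3.77), *Lyz2* (3.31) and *Adgre1* (2.42). Fibroblast markers were divided, with *Dcn* (0.83) and *Lum* (3.02) higher, 4 of 8 lower and sums of 4898 and 5427 in cultured stroma, against 3745 and 4378 in WT stroma. All 8 tested granulocyte markers and 5 of 5 endothelial markers were called lower. Fresh and cultured stroma also differed in how they were obtained, mesh residue in the fresh and adherent cells of whole spleen in the cultured, and passage, medium and selection of cells cannot be told apart in this design.

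**Figure D3:**
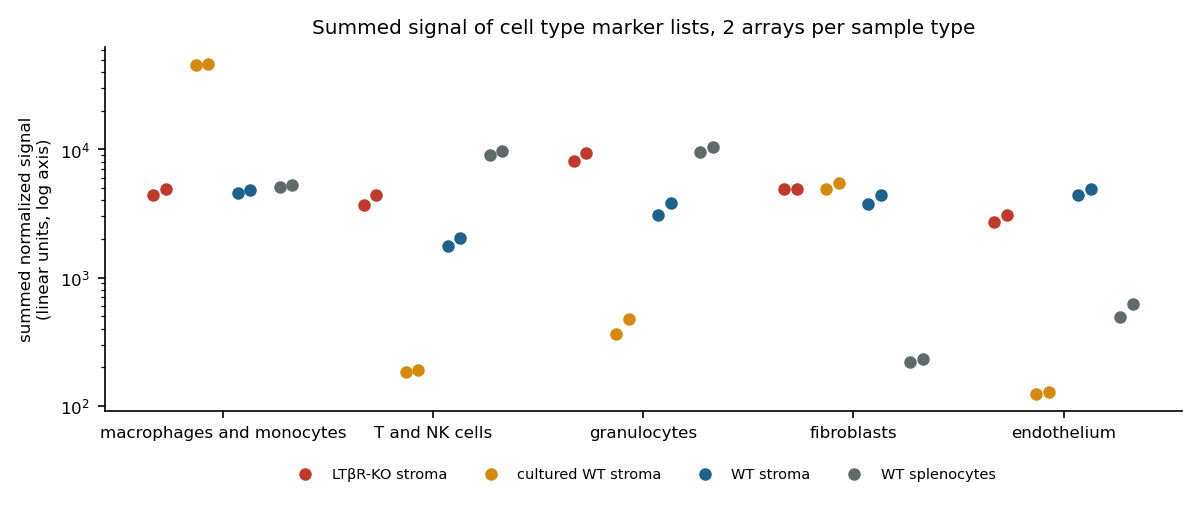
Summed normalized signal (linear units on a log axis) of 5 cell type marker lists on the 2 arrays of each sample type. Macrophage markers reach 45955 and 46835 in cultured stroma, T and NK markers are lowest there, and granulocyte markers are higher in LTβR-KO than in WT stroma.

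Of the 10 members, 4 have an upstream window in the RefSeq table of mouse build GRCm38.p6, and all 4 rose in culture. The 250 bases before the annotated start are shown for these 4, since no other member had a window. In LTβR-KO stroma *Ccl8* and *Ccl6* were called and *Ccl3* and *Ccl9* were not, the *Ccl6* call being lost in 11 of the 19 alternative settings. Each window runs 5′ to 3′ on the strand of its gene, and N stands for any base. Capitals mark matches on either strand to a TATA box (TATAAA, in 12.4% of 32817 windows of the same length), an NF-κB-like motif (GGAANTTCC, 0.811%), an AP-1-like motif (TGANTCA, 6.75%), a C/EBP-like motif (TTGCNNAA, 9.57%) or an ETS-like motif (GAGGAA, 23.3%).
Ccl8, chr11:82114935-82115184, + strand: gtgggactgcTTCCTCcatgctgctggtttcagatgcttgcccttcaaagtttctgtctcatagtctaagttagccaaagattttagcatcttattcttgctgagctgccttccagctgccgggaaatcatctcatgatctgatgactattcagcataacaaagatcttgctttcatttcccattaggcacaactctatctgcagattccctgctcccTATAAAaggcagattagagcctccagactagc
Ccl6, chr11:83593088-83593337, - strand: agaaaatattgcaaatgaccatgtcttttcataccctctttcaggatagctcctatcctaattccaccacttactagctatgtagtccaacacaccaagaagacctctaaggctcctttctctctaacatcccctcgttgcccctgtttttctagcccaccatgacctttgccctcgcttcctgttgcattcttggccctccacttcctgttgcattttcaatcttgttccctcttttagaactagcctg
Ccl9, chr11:83578637-83578886, - strand: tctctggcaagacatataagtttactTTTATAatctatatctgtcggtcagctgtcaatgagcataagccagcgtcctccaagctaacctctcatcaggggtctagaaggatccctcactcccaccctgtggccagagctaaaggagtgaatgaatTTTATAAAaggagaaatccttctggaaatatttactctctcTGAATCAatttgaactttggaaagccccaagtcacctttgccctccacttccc
Ccl3, chr11:83649379-83649628, - strand: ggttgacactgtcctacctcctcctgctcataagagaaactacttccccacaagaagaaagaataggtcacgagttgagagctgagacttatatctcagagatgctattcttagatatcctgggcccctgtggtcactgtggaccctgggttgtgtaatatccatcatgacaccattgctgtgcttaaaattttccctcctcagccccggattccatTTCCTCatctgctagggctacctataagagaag
The *Ccl8* window held TATAAA beginning 32 bases before the start and 1 ETS-like match on the opposite strand. The *Ccl9* window held 4 matches. Of these, 1 was TGAATCA at 53 bases, which meets the AP-1-like letters with an A at their free middle position. The other 3 were to the TATA motif, and those beginning 94 and 92 bases before the start overlap on opposite strands. No window matched the NF-κB-like or the C/EBP-like letters. The *Ccl3* window had 1 ETS-like match at 33 bases, and the *Ccl6* window had no match to these letters. Other forms of these sites, NF-κB and ETS sites included, were not searched. The NF-κB-like letters occur in only 0.811% of all windows, so their absence from 4 windows does not show that NF-κB sites are lacking. The windows were not alike, with 46.8% to 52.6% identical positions in global alignments of the 6 pairs. *Ccl6* and *Ccl9* shared the longest identical stretch, 13 bases, against 7 to 9 in the other pairs. A match is a run of letters and was not tested as a binding site.

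Fresh stroma and splenocytes of WT mice divided the family. *Ccl7*, *Ccl8* and *Ccl11* were called higher in WT stroma than in splenocytes, *Ccl3*, *Ccl4*, *Ccl5*, *Ccl6*, *Ccl9* and *Ccl24* were called lower, and *Ccl2* was undetected in both. Of all tested probes, 24.2% were called higher in this comparison and 31.6% lower, and the median difference was -0.86 for the members, against -0.09 for all probes. In the RefSeq order of genes, *Ccl2*, *Ccl7*, *Ccl11* and *Ccl8* stand next to each other on chromosome 11, with *Ccl12* among them and *Ccl1* after them. *Ccl5*, *Ccl9*, *Ccl6*, *Ccl3* and *Ccl4* follow as the next CC chemokine genes of that chromosome, and *Ccl24* lies on chromosome 5. The 3 members higher in stroma all belong to the *Ccl2* neighbourhood, and all 5 members of the *Ccl5* neighbourhood were lower.

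None of the 3 members higher in WT stroma was detected in splenocytes. *Ccl7* had 5.29 and 5.37 in WT stroma, against 4.54 and 4.48 in splenocytes, at least 1.38-fold higher (adjusted p = 5.33e-04). *Ccl8* was at least 1.29-fold higher (5.06 and 5.39 in WT stroma, 4.41 and 4.28 in splenocytes, adjusted p = 9.62e-04). *Ccl11*, which only 1 WT stroma array detected, was at least 1.08-fold higher (4.69 and 5.26 in WT stroma, 4.36 and 4.40 in splenocytes, adjusted p = 0.0237). Its call was lost in 6 of the 19 alternative settings, among them without either splenocyte array (adjusted p = 0.102 and 0.0830) and without WT stroma replicate 2 (0.220).

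*Ccl5* differed most on the splenocyte side. Its log2 signal was 7.76 and 8.03 in WT stroma, against 10.57 and 10.10 in splenocytes, 5.42-fold lower in stroma (difference -2.44, SE 0.19, adjusted p = 1.99e-06). *Ccl3* was undetected in WT stroma (4.64 and 4.61) and had 6.14 and 6.10 in splenocytes, at least 2.47-fold lower in stroma (adjusted p = 4.72e-06). *Ccl6* was likewise undetected in WT stroma, against 6.17 and 6.14 in splenocytes, at least 2.53-fold lower (adjusted p = 1.11e-05). With an offset of 50 the measured folds of *Ccl3* and *Ccl6* were 1.77 and 1.74, under these bounds, with both calls kept. *Ccl4* was 1.77-fold lower in WT stroma (6.27 and 6.60, against 7.44 and 7.09 in splenocytes, adjusted p = 0.00209). *Ccl9* (5.10 and 5.58 in WT stroma, 6.76 and 6.10 in splenocytes) and *Ccl24* (5.60 and 5.57 in WT stroma, 6.78 and 6.17 in splenocytes) were 2.13-fold and 1.85-fold lower (adjusted p = 0.00444 and 0.00602). Both calls rested on splenocyte replicate 1, the brighter array for each, and without it the adjusted p was 0.0562 for *Ccl9* and 0.0724 for *Ccl24*. Beside these, all 6 T and NK markers and 4 of 4 B cell markers were lower in WT stroma, with T and NK sums of 1773 and 2039, against 9059 and 9776 in splenocytes, while of 8 macrophage markers 1 was called lower and 0 higher. Their part in the chemokine differences was not tested.

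LTβR-KO stroma divided the family against splenocytes in the same way, with *Ccl7*, *Ccl8* and *Ccl11* higher, the same 6 members lower and *Ccl2* undetected in both, while 47.8% of all tested probes were called in either direction. Both sets of differences share the splenocyte arrays. *Ccl11* and *Ccl8* were at least 3.95-fold and 3.66-fold higher in LTβR-KO stroma than in splenocytes (adjusted p = 2.81e-06 and 1.01e-06). In cultured stroma against splenocytes, 8 members were called higher and *Ccl5* and *Ccl24* lower, with 59.2% of all tested probes called. *Ccl7* was at least 179-fold higher (adjusted p = 3.80e-11) and *Ccl5* was 4.80-fold lower (adjusted p = 2.45e-06).

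**Figure D4:**
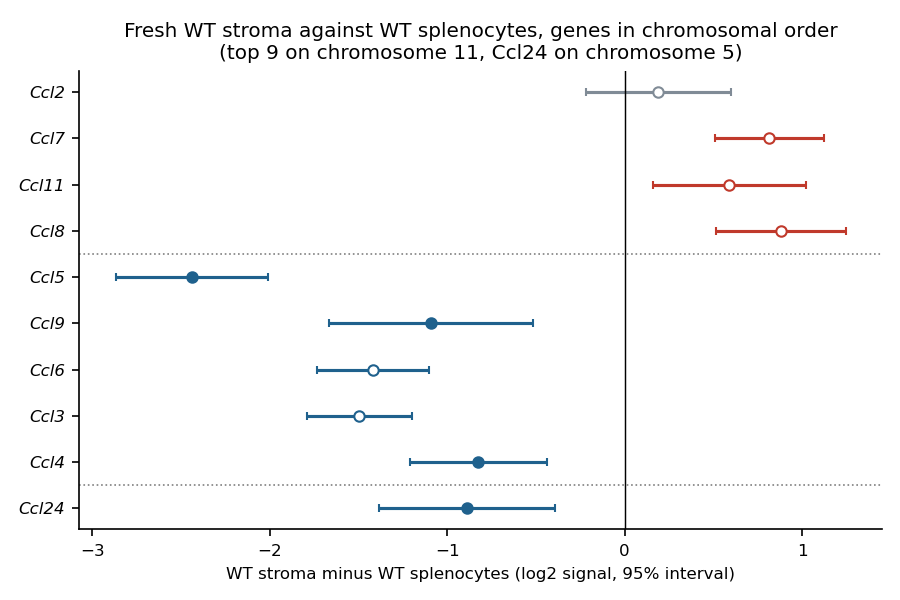
Difference in normalized signal (log2, horizontal axis) of WT stroma minus WT splenocytes with 95% intervals, for the 10 members in their order along chromosome 11 and then *Ccl24* of chromosome 5. Red points were called higher, blue lower and grey not called, and open points rest on a group with no detection. The upper 4 genes lie right of 0, *Ccl2* uncalled, and the lower 6 lie left of it.

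The order of the 4 sample types differed between members. Cultured stroma stood highest for 8 members, and splenocytes stood highest for *Ccl5* and *Ccl24*. For *Ccl8* and *Ccl11* the order was cultured stroma, LTβR-KO stroma, WT stroma and splenocytes, and for *Ccl6* it was cultured stroma, splenocytes, LTβR-KO stroma and WT stroma, with each step called by the fit. For *Ccl5* the order was splenocytes, LTβR-KO stroma, cultured stroma and WT stroma, and the last step was not called. LTβR-KO and WT stroma were neighbours in that order with no call between them for *Ccl2*, *Ccl3*, *Ccl4*, *Ccl7*, *Ccl9* and *Ccl24*, although the arrays of *Ccl24* did not overlap. *Ccl2* had no called step below cultured stroma, since the other 3 sample types were at background.

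The receptors of the family moved little in signal, apart from *Ackr2* and, in culture, *Ackr1*. Of 8 listed receptors, 5 had a tested probe (*Ccr1*, *Ccr3*, *Ackr1*, *Ackr2* and *Ccrl2*). In LTβR-KO stroma 1 was called lower and 0 higher, with 0 higher also at an unadjusted p under 0.05. That gene was *Ackr2*, which internalizes inflammatory CC chemokines without signalling. It had 6.02 and 6.27 in LTβR-KO stroma, against 7.74 and 7.69 in WT stroma, a 2.97-fold lower signal (difference -1.57, SE 0.18, adjusted p = 4.68e-04), and this call held in all 19 alternative settings. In cultured stroma *Ackr2* was undetected (5.05 and 4.52) and at least 6.68-fold lower than in fresh WT stroma (adjusted p = 2.31e-07). *Ackr1*, which carries chemokines on venular endothelium and erythroid cells, was undetected in cultured stroma (4.39 and 4.48), against 7.17 and 7.20 in fresh WT stroma, at least 4.64-fold lower (adjusted p = 7.46e-08). In LTβR-KO stroma *Ackr1* had 7.39 and 7.62, a difference of 0.32 from WT stroma that was not called (adjusted p = 0.204). *Ackr2* was thus lower in both stroma types in which *Ccl8* and *Ccl11* were higher, with the WT stroma arrays shared by both comparisons. *Ccl2*, *Ccl3*, *Ccl4*, *Ccl7* and *Ccl9* were higher in culture only, and *Ccl24* was lower in culture, as *Ackr2* was. A link between *Ackr2* and the mRNA levels of the members was not tested. Of the 5 tested endothelial markers, 4 were lower in LTβR-KO and 5 in cultured stroma as well. The 2 tested erythroid markers, *Hba-a1* and *Slc4a1*, were undetected in cultured stroma and not called in LTβR-KO stroma. *Ackr1* (-0.10, adjusted p = 0.611) and *Ackr2* (0.26, adjusted p = 0.265) were not called in WT stroma against splenocytes, where 4 of 5 endothelial markers were higher. The part of these cell types in the *Ackr1* and *Ackr2* differences was not tested. The signalling receptors *Ccr1* and *Ccr3* and the atypical *Ccrl2* were not called in LTβR-KO or cultured stroma against WT stroma. In culture, 2 alternative settings called *Ccr3* lower and 1 called *Ccr1* higher. In WT stroma against splenocytes only *Ccr3* was called (lower by 0.62, adjusted p = 0.00218).

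**Figure D5:**
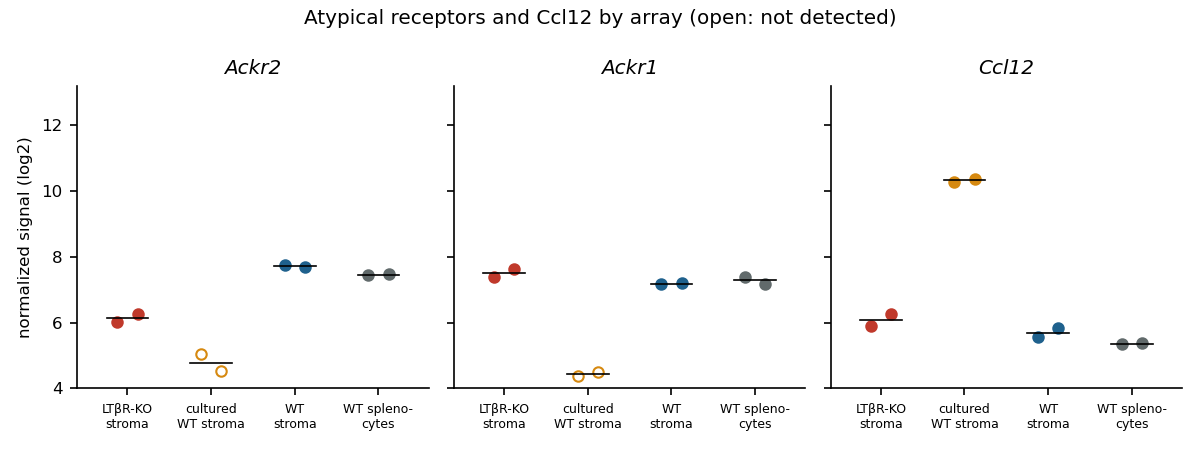
Normalized signal (log2, vertical axis) of *Ackr2*, *Ackr1* and *Ccl12* on every array, with sample types along the horizontal axis, bars as means of 2 arrays and open points not detected. *Ackr2* is at 6.02 and 6.27 in LTβR-KO stroma, below the 7.74 and 7.69 of WT stroma, and both receptors are undetected in culture.

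Of 10 other CC ligands listed, 5 had a tested probe. *Ccl12*, a mouse monocyte attractant that lies between *Ccl11* and *Ccl8*, was higher in culture, as were members of both chromosome 11 neighbourhoods. It had 10.29 and 10.37 in cultured stroma, against 5.56 and 5.84 in fresh WT stroma (24.8-fold, adjusted p = 4.14e-09). Unlike *Ccl7*, *Ccl8* and *Ccl11*, it was detected in splenocytes (5.35 and 5.37). Its difference of 0.34 between WT stroma and splenocytes was not called in the reported fit (adjusted p = 0.106). In LTβR-KO stroma it had 5.90 and 6.26, a difference of 0.38 from WT stroma (adjusted p = 0.171). *Ccl21a*, the homeostatic CCR7 ligand of the T zone, was called lower in both. It had 9.25 and 9.34 in LTβR-KO stroma, against 12.84 and 12.83 in WT stroma (11.6-fold lower, adjusted p = 2.21e-07), and was undetected in cultured stroma, at least 232-fold lower than in fresh WT stroma (adjusted p = 2.50e-11). It was the only listed ligand called in LTβR-KO stroma. In culture *Ccl25* was also higher (0.78, adjusted p = 0.00118) and *Ccl27a* lower (-0.65, adjusted p = 0.00254), and in WT stroma against splenocytes *Ccl21a* and *Ccl27a* were higher.

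The genes whose log2 signal followed each member most closely over the 8 arrays were found by Pearson's r among 9003 tested named genes, and some of them are given here. The arrays share the 2 far-off cultured libraries, so r mostly records that gap and is given as a description. *Ccl8* was itself the second closest gene to *Ccl11* (r = 0.986). *Mmp3*, a stromal matrix protease, was the third closest to both (r = 0.991 for *Ccl8* and 0.981 for *Ccl11*). *Ccl7* was nearest to *Lrp12*, and *Lum*, a fibroblast proteoglycan, came next (r = 0.999). *Ccl6* and *Ccl9* shared *Aldoc*, a glycolytic aldolase, as their closest gene (r = 0.998 and 0.996), and *Ccl4* lay close to *Mvd* and *Fdps* of the sterol pathway (r = 0.998 and 0.996). *Ccl5* had *Cd52*, a lymphocyte surface antigen, as its closest gene (r = 0.989), and *Ccl24* had *Fgf13* (r = 0.981). Among the members, *Ccl2* and *Ccl7* gave the highest r of all pairs (0.995) and *Ccl11* and *Ccl24*, the eotaxins, the lowest (-0.909).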

How the data were processed

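Total RNA (400 ng per sample) was amplified and hybridized by the authors to MouseRef-8 chips and read with GenomeStudio. They deposited, per probe and array, the unnormalized bead signal, a linear intensity with its background still in it, besides the p-value of its detection over the negative controls. They also deposited intensity values normalized by cubic spline after background subtraction, used here only as an alternative. In that alternative, values under 16 were set to 16 before log2. Groups came from the labels; chip and scan date are not given in the sources used here.

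Signals went through neqc of limma 3.58.1 (R 4.3.3): normexp with negative control moments taken from the detection column, an offset of 16, quantile normalization and log2. Quantile normalization gives all arrays the same distribution, so differences are relative to it. The filter for detection (p under 0.05 for both arrays of some group) left 12389 of 24613 probes. They were fitted over all 8 arrays (lmFit, eBayes, 4 residual and 6.27 prior degrees of freedom), and a call required an adjusted p (Benjamini-Hochberg) under 0.05. The brightest tested probe stood for a gene. Symbols came from the array annotation, with 20968 probes matched to RefSeq by gene ID. With 2 arrays per group the number of arrays limits precision. Fits were tested on simulated data, in which large changes were mostly called but a part of the smaller ones was missed, so that a gene not called is not thereby shown to be unchanged. Upstream windows and gene order came from RefSeq (GRCm38.p6); the deposited tables name no build. Figures were drawn with Python 3.11.15, matplotlib 3.10.9 and numpy 2.4.6.

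Every member with a probe was named, and the receptors and other ligands came from fixed lists of which the called ones could be named. The 3 nearest named genes by r were found for each member. Those given in the text were picked from them after they were seen. Cell type markers stood in fixed lists; those for mast cells and basophils, and for adipocytes, had 1 tested gene each (not called in LTβR-KO against WT stroma), platelet markers had 1 of 5 higher there and erythroid markers 0 of 2 called. *Mrc1*, *C1qb* and other single markers were picked as examples after their values were seen. The members and lists were chosen with earlier results of these data known. Alternatives were other background corrections, normalizations, detection filters, variance models and probe rules, a fit of the compared groups alone, the replicate number as a block, and leaving out each array.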

Additional observations from a re-analysis of the deposited data

How the results depend on the processing

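Under the 19 alternative settings, 3 or 4 members were called in LTβR-KO against WT stroma (4 in the reported fit), 9 in cultured against fresh WT stroma (9) and 6 to 9 in WT stroma against splenocytes (9). No called difference changed direction. Leaving out 1 array gave 3 to 4, 9 to 9 and 6 to 9 members, with the lowest count of 6 without WT splenocytes replicate 1. *Ccl6* in LTβR-KO stroma lost its call in 11 settings, and so did *Ccl11* in 6, *Ccl9* in 1 and *Ccl24* in 1 for WT stroma against splenocytes. No member outside the reported calls gained one. Among the other pathway genes, calls appeared for *Ccr3* in culture with scaling to the 75th percentile (adjusted p = 0.0410) and without a detection filter (0.0446), for *Ccr1* in culture without cultured stroma replicate 2 (0.0241), and for *Ccl12* in WT stroma against splenocytes with cyclic loess (0.00997) and with the mean of a gene's probes (0.00520). Folds moved by over 1.5 times for 1 of 4 called members in LTβR-KO stroma (*Ccl11*), 8 of 9 in culture and 2 of 9 against splenocytes (*Ccl3* and *Ccl6*), and in culture also for *Ackr1* (3.25 to 9.61), *Ackr2* (3.96 to 11.7), *Ccl12* (14.9 to 34.3) and *Ccl21a* (132 to 432), the lowest values lying under the bounds given for *Ackr1*, *Ackr2* and *Ccl21a*. The numbers of called probes overall moved more: 1543 in LTβR-KO against WT stroma became 1019 with scaling to the 75th percentile, 760 in a fit of the compared groups alone, 710 when WT stroma replicate 1 was left out, and 965 when LTβR-KO stroma replicate 2 was. The causes were not tested. Replicate differences correlated at 0.285 between LTβR-KO and WT stroma, 0.108 between cultured stroma and splenocytes, and between -0.142 and -0.022 in the other 4 pairs of groups, so the numbers were not taken as pairs. With the replicate block, 3, 9 and 9 members were called in the 3 comparisons, *Ccl6* being lost (adjusted p = 0.0517), and 1509 probes overall in LTβR-KO against WT stroma. In fresh WT stroma all members but *Ccl4* and *Ccl5* lay at or near the detection limit, and their folds are compressed or bounded. Whether the 2 arrays of a group are separate mice decides how far the p-values reach.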
